A study of Mus musculus with 18 samples.

Results

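Messenger RNA levels of 10 genes that mark hepatic stellate cells and pericytes were followed across 18 mouse liver samples. The genes were Acta2, Tagln, Des, Lrat, Reln, Cygb, Rgs5, Pdgfrb, Ngfr and Hgf. They were chosen by name, and all 10 were found among the 54838 genes of the deposited expression table. Hepatic stellate cells lie in the space between hepatocytes and the sinusoidal endothelium. At rest they store vitamin A as retinyl esters, and after injury they can become contractile, matrix-producing cells. Pericytes and vascular smooth muscle cells wrap vessels, are recruited by PDGF signalling and share part of the contractile programme.

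RNA-seq was carried out on whole tissue from C57BL/6 mice of 36 weeks of age in 6 groups of 3 samples. Mice were wild type (WT) or carried a global knockout of miR-181ab1 (GKO), which removes the microRNA genes Mir181a-1 and Mir181b-1 from every cell and not from the liver alone. Normal livers came from untreated mice, and the non-tumour and tumour samples came from mice given diethylnitrosamine (DEN) intraperitoneally once at postnatal day 12, at 25 mg/kg. DEN is a carcinogen that is activated in hepatocytes and causes liver tumours. The labels do not state which tumour and non-tumour came from the same mouse, nor that replicates came from separate animals. A caption in the study's supplement, on mRNA levels in tumour and non-tumour tissue, gives 3 mice per group but names no assay. P-values here therefore set a difference against the variation among these samples, taken as independent.

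The 5′ arms of the deleted microRNAs share the seed at bases 2 to 8, shown in capitals in the RefSeq sequences (GRCm38.p6, chromosome 1, plus strand), because the seed is what pairs with a target.
mmu-miR-181a-5p: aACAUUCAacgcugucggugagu
mmu-miR-181b-5p: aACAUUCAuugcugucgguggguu
The first arm lies at chr1:137966468-137966490 and the second at chr1:137966650-137966673. The DNA word complementary to this seed is TGAATGT (7mer-m8). The word GAATGTA (7mer-A1) leaves out base 8 and ends in an A opposite base 1, which is outside the seed. Their union is TGAATGTA (8mer). The longest annotated 3′ UTR of each of the 10 genes, between 580 and 4397 bases, held 0 of these words on the sense strand, while 22.4% of the 11790 genes tested in tumours and given a 3′ UTR by the annotation held at least 1 of them. Absence of the letters says nothing about sites of other kinds.

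Values are TPM, a transcript level scaled for gene length and library size, and differences are on the log2(TPM + 1) scale from limma, with p-values adjusted by the Benjamini-Hochberg method over all genes tested. Libraries held between 11925059 and 20751353 reads on genes as recovered from the table. Only genes averaging 0.5 TPM or more over the samples compared were tested, which took in 8 of the 10 genes in every comparison and left out Hgf and Tagln. Mir181a-1 and Mir181b-1 were at 0 TPM in every library except 1 read of Mir181a-1 in GKO tumour 3, so levels of the deleted genes in WT and GKO livers could not be compared. WT non-tumour 2 stood apart from the other WT non-tumours, with correlations to them of 0.929 and 0.933, against 0.969 between those other samples. WT tumours 1 and 2 were more alike (r = 0.982) than any other same-group pair. Values without WT non-tumour 2, or with WT tumours 1 and 2 averaged, are given beside the main tumour results.

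Exons of 5 of the genes overlap another gene's exons, so that reads there cannot be assigned to 1 gene. Where the other gene lies on the opposite strand, strand-aware counting would separate them, but its use was not stated. Tagln is the extreme case, with 1349 of its 1988 exonic bases shared with the antisense gene Gm48529 (1241 bases) or the end of Pcsk7 (108 bases). The shared part was 8.62% for Cygb, 5.86% for Des and 1.04% for Reln, all on opposite strands, and 6.74% for Hgf, where the other gene, Gm43489, lies on the same strand. Acta2, Rgs5, Pdgfrb, Lrat and Ngfr shared no exonic base with another gene. Stretches of 50 bases in common with transcripts of other genes made up 6.02% of those of Hgf, 0.824% of Ngfr, 0.326% of Acta2 and 0.151% of Reln, and 0 in the other 6 genes.

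**Figure D1:**
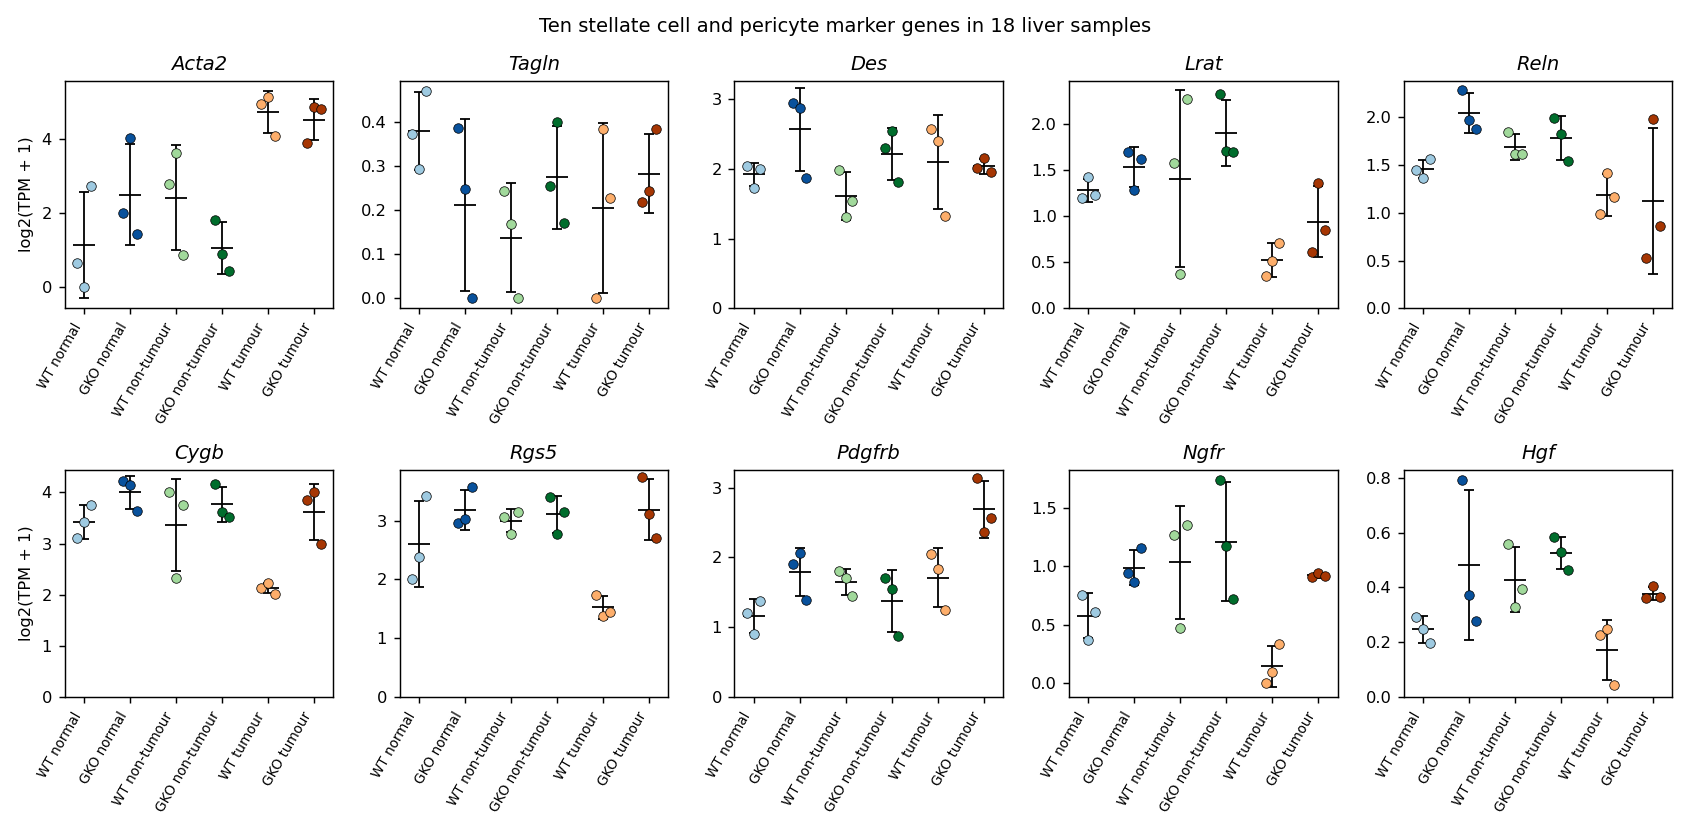
Each panel plots log2(TPM + 1) of 1 gene for the 18 samples, 3 per group, with the group mean and SD as a bar. Acta2 lay above its non-tumours in all tumours of both genotypes, while Rgs5, Cygb and Ngfr were low in WT tumours and not in GKO tumours.

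The first comparison asked how tumours differed from the surrounding non-tumour liver. The contractile gene Acta2 was higher in tumours of both genotypes, and Lrat, the enzyme that makes the stored retinyl esters, was lower. Rgs5, a pericyte regulator of G-protein signalling, fell in WT tumours, and Pdgfrb, the PDGF receptor of mural cells, rose in GKO tumours. In the joint fit over both genotypes, 1 of the 8 genes was higher and 1 lower, beside 12.2% of 14106 genes called higher and 7.87% called lower, so that the share of markers called was near that of all genes. The 3 tumour comparisons use the same libraries and are not independent of each other. In whole tissue, fewer cells of a type and less RNA per cell cannot be told apart.

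Acta2 encodes smooth muscle α-actin, the actin of activated stellate cells and of vascular smooth muscle. WT tumours measured 29.8, 34.7 and 15.9 TPM and GKO tumours 13.9, 28.2 and 27.5 TPM. WT non-tumours measured 5.88, 11.3 and 0.805 TPM and GKO non-tumours 2.51, 0.86 and 0.348 TPM. Every tumour lay above every non-tumour of its genotype. The difference was 2.90 (SE 0.46, limma adjusted p = 0.00134), and the exact permutation test within genotypes gave p = 0.005, the smallest that its 400 arrangements allow. In GKO mice alone the difference was 3.49 (SE 0.42, adjusted p = 0.00655). In WT mice alone it was 2.31 (SE 0.69, adjusted p = 0.134) and did not pass. Normal livers spread widely, from 0 to 5.7 TPM in WT and at 3.02, 15.5 and 1.72 TPM in GKO, so that GKO normal liver 2 exceeded GKO tumour 1.

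The sequence before the Acta2 start is shown because Acta2 made the largest change of the 8 genes and is a textbook target of serum response factor, which binds the CArG box. The 250 bases upstream of the RefSeq start on the minus strand, chr19:34255374-34255623 (GRCm38.p6), carry in capitals the stretches that match the CArG box when 1 of the 6 A or T letters of its core may be any base.
Acta2 upstream: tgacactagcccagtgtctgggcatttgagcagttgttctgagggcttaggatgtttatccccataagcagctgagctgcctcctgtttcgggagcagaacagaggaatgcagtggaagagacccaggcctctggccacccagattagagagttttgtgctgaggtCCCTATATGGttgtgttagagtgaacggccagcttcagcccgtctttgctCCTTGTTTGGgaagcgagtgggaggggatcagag
The matches begin 84 and 34 bases before the start. RefSeq windows were matched for 7 of the 10 genes. The motif is symmetric, so that both strands were searched at once. At least 2 such matches were held by 0.822% of 32851 mouse promoter windows of 300 bases, and at least 1 by 9.98%. The strict CArG box was absent from the Acta2 window and present in 1.63% of all windows. Windows were not used for every gene of the lists, and Actg2 and Myh11 were among the genes without one. In the list windows used, the strict box was found once each in those of Myl9 and of Pdgfc, a PDGF ligand. That of Srf, the gene for the factor itself, held it in 2 places. The windows of Rgs5, Des, Reln, Ngfr and Hgf held neither form, and that of Lrat held 1 relaxed match. These are matches of letters and not measured binding.

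Tagln encodes transgelin, an actin-binding protein of contractile cells. It was low throughout, measuring between 0 and 0.386 TPM over the 18 samples, with at most 8 reads in a library. Tumours measured 0, 0.306 and 0.171 TPM in WT and 0.163, 0.185 and 0.306 TPM in GKO, which overlapped all other groups. Reads from most of its exons also fall within Gm48529, which measured between 0.477 and 1.32 TPM. A low Tagln value is therefore uncertain.

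Des encodes desmin, an intermediate filament of stellate cells and muscle. WT tumours measured 4.93, 4.28 and 1.51 TPM and WT non-tumours 2.95, 1.47 and 1.91 TPM. GKO tumours measured 3.03, 3.45 and 2.86 TPM and GKO non-tumours 3.91, 4.83 and 2.51 TPM. The groups overlapped in both genotypes, and the joint difference was 0.16 (SE 0.24, limma adjusted p = 0.680).

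Lrat is lecithin retinol acyltransferase, a defining gene of resting stellate cells. WT tumours measured 0.271, 0.432 and 0.635 TPM, against 1.98, 0.298 and 3.84 TPM in WT non-tumours. GKO tumours measured 0.526, 1.58 and 0.797 TPM, against 4.01, 2.27 and 2.25 TPM in GKO non-tumours. All GKO tumours lay below the GKO non-tumours, and WT tumours did so for every non-tumour except WT non-tumour 2. The joint difference was −0.93 (SE 0.28, limma adjusted p = 0.0348; exact permutation p = 0.015). It was −0.88 (SE 0.47, adjusted p = 0.352) in WT and −0.97 (SE 0.28, adjusted p = 0.0643) in GKO mice. The joint call was lost when any of 9 of the 12 libraries was left out (adjusted p up to 0.0753), and was kept without WT non-tumour 2, WT tumour 3 or GKO tumour 2.

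Reln, an extracellular glycoprotein made by stellate cells in the liver, measured 0.984, 1.68 and 1.24 TPM in WT tumours and 2.59, 2.06 and 2.06 TPM in WT non-tumours, without overlap. GKO tumours measured 0.442, 2.97 and 0.821 TPM and GKO non-tumours 2.97, 2.54 and 1.91 TPM. GKO tumour 2 was as high as the highest non-tumour. The joint difference was −0.58 (SE 0.22, limma adjusted p = 0.0814).

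Cygb encodes cytoglobin, a haem protein of stellate cells that binds oxygen. WT tumours measured 3.37, 3.66 and 3.06 TPM and WT non-tumours 15.2, 4.05 and 12.5 TPM. GKO tumours measured 13.5, 15.1 and 7 TPM and GKO non-tumours 16.9, 11.3 and 10.5 TPM. The WT tumours were lowest of all groups and varied least, at 3.36 ± 0.30 TPM (SD, n = 3). The differences were −1.24 (SE 0.43, limma adjusted p = 0.181) in WT and −0.15 (SE 0.33, adjusted p = 0.779) in GKO mice.

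Rgs5 measured 2.34, 1.61 and 1.72 TPM in WT tumours and 7.36, 5.85 and 7.89 TPM in WT non-tumours. GKO tumours measured 12.4, 7.67 and 5.52 TPM and GKO non-tumours 9.58, 5.84 and 7.86 TPM. The WT groups did not overlap, and GKO groups did. The WT difference was −1.47 (SE 0.21, limma adjusted p = 0.0136), which made Rgs5 the 1 gene of 8 called in WT mice, beside 2.07% of 14003 genes called lower and 2.16% called higher. The GKO difference was 0.08 (SE 0.31, adjusted p = 0.878), and it turned to −0.16 when samples were centred on their medians.

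Without WT non-tumour 2, Cygb and Ngfr also passed in WT mice and 3 of the 8 genes were called lower, beside 3.13% of all genes called lower and 2.87% higher in that fit. With WT tumours 1 and 2 averaged as 1 sample, 0 were called, beside 0.528% lower and 0.793% higher, and Rgs5 had an adjusted p of 0.0574 by limma. Its call was also lost without WT non-tumour 1 or 3 or WT tumour 2 (adjusted p up to 0.0791). In the separate comparisons without overlap between groups, 4 of the 8 genes were lower in WT tumours (Rgs5, Cygb, Reln and Ngfr) and 1 was higher (Acta2), beside 13.9% and 11.0% of all genes. In GKO mice 2 were higher (Acta2 and Pdgfrb) and 1 lower (Lrat), beside 25.7% and 12.7%. Acta2 was the 1 gene of 8 higher without overlap in both genotypes, beside 6.61% of all genes, and 0 were lower in both, beside 4.44%.

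Pdgfrb measured 7.82, 4.13 and 4.91 TPM in GKO tumours and 2.26, 1.91 and 0.838 TPM in GKO non-tumours. WT tumours measured 3.14, 2.58 and 1.37 TPM and WT non-tumours 2.49, 2.26 and 1.72 TPM. The GKO tumours were the highest group and did not overlap any other. Their difference from GKO non-tumours was 1.31 (SE 0.30, limma adjusted p = 0.0365), so that 2 of the 8 genes, with Acta2, were called higher and 0 lower in GKO mice, beside 7.75% and 3.97% of 14092 genes. The WT difference was 0.06 (SE 0.26, adjusted p = 0.931). The Pdgfrb call in GKO mice was lost without GKO non-tumour 2 or 3 and without GKO tumour 1 or 3 (adjusted p up to 0.136), and also with median centring (adjusted p = 0.0637), quantile normalization, voom or no filter on low values.

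Ngfr encodes the p75 neurotrophin receptor, found on stellate cells and on nerve sheath cells. WT tumours measured 0, 0.0707 and 0.263 TPM and GKO tumours 0.879, 0.923 and 0.884 TPM. WT non-tumours measured 1.41, 0.391 and 1.56 TPM and GKO non-tumours 2.33, 1.26 and 0.648 TPM. All WT tumours lay below every other sample, but each held at most 8 reads of Ngfr. In WT mice the gene passed the filter on low values through the non-tumours. The differences were −0.89 (SE 0.29, limma adjusted p = 0.163) in WT and −0.29 (SE 0.28, adjusted p = 0.490) in GKO mice.

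Hgf encodes hepatocyte growth factor, which stellate cells secrete and hepatocytes receive. It was low everywhere, between 2 and 43 reads in a library, and entered no limma test. WT tumours measured 0.168, 0.186 and 0.0315 TPM, against 0.474, 0.256 and 0.316 TPM in WT non-tumours. GKO tumours measured 0.286, 0.323 and 0.288 TPM, against 0.498, 0.444 and 0.38 TPM in GKO non-tumours. Tumours were below non-tumours without overlap in both genotypes (exact permutation within genotypes, p = 0.005, the smallest possible). Among the genes tested by limma, 4.44% were lower without overlap in both genotypes. Normal livers measured between 0.147 and 0.225 TPM in WT and between 0.213 and 0.732 TPM in GKO mice, which overlapped the tumours of each genotype. This exact test was run for all 10 genes, and its p-values are not adjusted for that number.

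**Figure D2:**
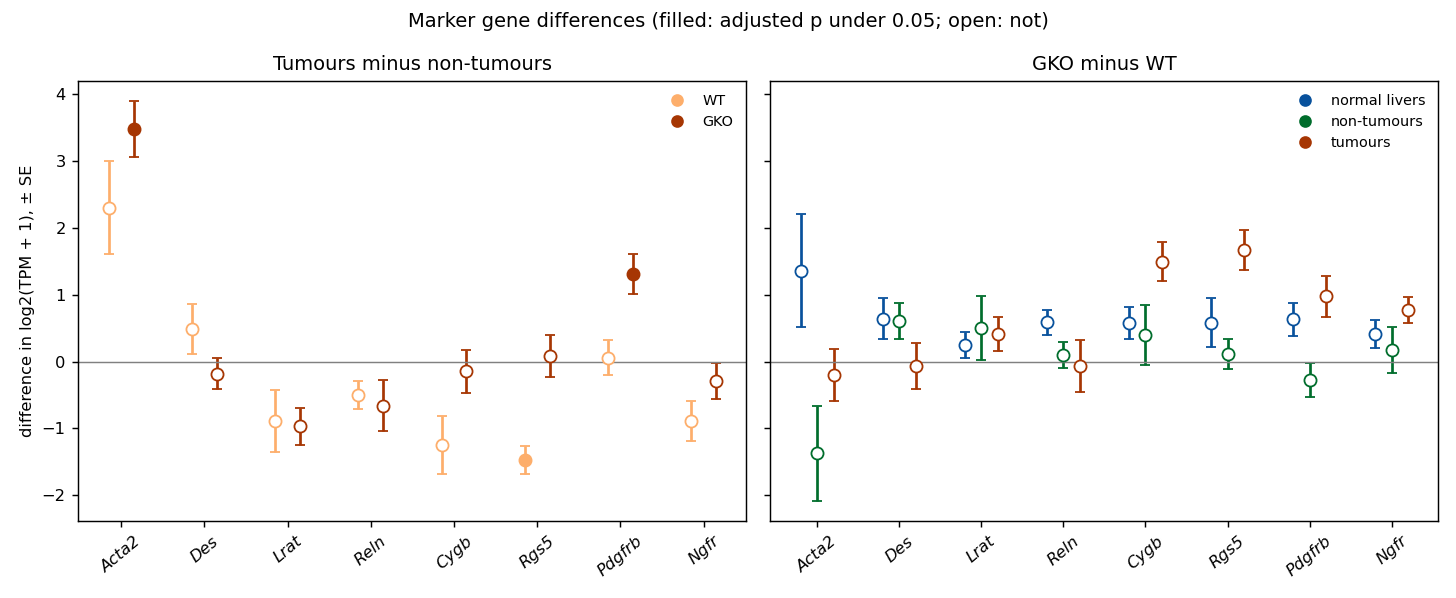
Differences in log2(TPM + 1) with their SE for the 8 genes tested, on the left for tumours against non-tumours in each genotype and on the right for GKO against WT in each tissue. Filled points have an adjusted p under 0.05, and these are Rgs5 in WT and Acta2 and Pdgfrb in GKO mice on the left and none on the right.

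The second comparison set GKO tumours against WT tumours. Rgs5, Cygb, Pdgfrb and Ngfr were each higher in all 3 GKO tumours than in all 3 WT tumours, 4 of the 8 genes tested, beside 9.88% of all genes higher and 4.78% lower without overlap. Group means were 8.53 ± 3.52 and 1.89 ± 0.40 TPM (SD, n = 3) for Rgs5 and 11.9 ± 4.28 and 3.36 ± 0.30 TPM for Cygb. None of the 8 genes passed the adjusted threshold, where 0.0% of 13964 genes were called higher and 0.0215% lower. At an unadjusted p under 0.05 limma found 4 of the 8 genes higher and 0 lower, beside 5.37% of all genes higher and 3.49% lower, and voom on recovered reads called 0 genes of all tested. Both counts of 4 include Ngfr, which averaged 0.895 TPM in GKO and 0.111 TPM in WT tumours. It passed the filter of 0.5 TPM only through the GKO tumours, and each WT tumour held at most 8 of its reads. Ngfr therefore adds no support to either count.

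The difference between GKO and WT tumours was 1.67 for Rgs5 (SE 0.30, limma adjusted p = 0.270) and 1.498 for Cygb (SE 0.30, adjusted p = 0.302). It was 0.98 for Pdgfrb (SE 0.31, adjusted p = 0.467) and 0.78 for Ngfr (SE 0.20, adjusted p = 0.374). With WT tumours 1 and 2 averaged the differences were 1.69, 1.52, 1.10 and 0.73 in the same order (limma adjusted p between 0.828 and 0.979). With all 18 samples in one fit, Rgs5 passed (adjusted p = 0.0264), beside 0.315% of all genes called higher and 0.451% lower. Acta2 differed by −0.20 (SE 0.39), Des by −0.06 (SE 0.35), Reln by −0.06 (SE 0.39) and Lrat by 0.42 (SE 0.26), with overlapping groups. Hgf was higher without overlap in GKO tumours, but at these levels the WT tumours held few reads.

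Whether the change from non-tumour to tumour differed between genotypes was tested as an interaction. The interaction was 1.55 for Rgs5 (SE 0.38, limma adjusted p = 0.404) and 1.25 for Pdgfrb (SE 0.41, adjusted p = 0.422), with unadjusted p-values of 0.00176 and 0.0114, where 7.95% of all genes were higher and 2.57% lower at an unadjusted p under 0.05. It was 1.10 for Cygb (SE 0.58, adjusted p = 0.496). With WT tumours 1 and 2 averaged these 3 values were 1.57, 1.37 and 1.12 (adjusted p = 0.676 for each). None of the 8 passed, beside 0.0% of 14106 genes called higher and 0.0142% lower. A difference of the tumour effect between WT and GKO mice is thus not shown for these genes.

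Other genes of the same cells and markers of other cells were read in the same tumours. The other stellate cell genes summed to between 51.5 and 88.4 TPM in WT tumours, and between 114 and 196 TPM in GKO tumours, without overlap. For the other pericyte and smooth muscle genes the sum was between 64.9 and 72.3 TPM in WT and between 69.1 and 99.4 TPM in GKO tumours, with overlap. The summed level of the 12 endothelial markers was between 142 and 216 TPM in WT tumours, and between 190 and 260 TPM in GKO tumours. That of the 12 activated fibroblast genes was between 316 and 476 TPM in WT tumours, and between 557 and 630 TPM in GKO tumours, without overlap. Fn1 and Sparc made the largest parts of this fibroblast sum. Fn1 lay between 142 and 345 TPM in WT and between 184 and 277 TPM in GKO tumours, with overlap. Sparc lay between 95.8 and 159 TPM in WT and between 185 and 274 TPM in GKO tumours, without overlap. The 6 Schwann cell markers, which would accompany nerve sheath Ngfr, were also summed. Their sum was between 1.06 and 1.40 TPM in WT and between 0.806 and 1.62 TPM in GKO tumours. The part of these cells in the levels of Rgs5, Pdgfrb and Ngfr was not tested.

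The third comparison set GKO against WT outside tumours. In untreated normal livers all 8 genes tested were on average higher in GKO livers, with a median difference of 0.58 beside 0.06 for all genes. Reln measured 3.88, 2.94 and 2.67 TPM in GKO and 1.72, 1.58 and 1.95 TPM in WT normal livers (difference 0.59, SE 0.19). Pdgfrb measured 2.75, 3.17 and 1.63 TPM in GKO and 1.29, 0.863 and 1.59 TPM in WT normal livers (difference 0.63, SE 0.24). These genes and Ngfr did not overlap between the genotypes, 3 of 8 beside 6.23% of all genes higher and 1.73% lower. None of the 8 genes passed (limma adjusted p = 0.999 for each), and 0.0% of 13099 genes were called in either direction. At an unadjusted p under 0.05 limma found 3 of the 8 higher, beside 3.17% of all genes higher and 0.794% lower, and 62.4% of all genes were on average higher in GKO livers.

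The other stellate cell genes differed in the same direction between normal livers, with 17 of 17 tested on average higher in GKO livers, 9 of them at an unadjusted p under 0.05 and 0 called, to be read against the shares of all genes just given. Endothelial markers summed to between 105 and 126 TPM in GKO and between 59.0 and 65.3 TPM in WT normal livers. Portal fibroblast and mesothelial genes summed to between 11.0 and 41.4 TPM in GKO and between 3.98 and 8.23 TPM in WT normal livers. Cholangiocyte markers summed to between 93.0 and 102 TPM in GKO and between 47.2 and 58.5 TPM in WT normal livers. The part of these cell types in the higher levels was not tested.

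In non-tumour livers all 8 genes overlapped between the genotypes. Differences lay between −1.37 for Acta2 (SE 0.71) and 0.61 for Des (SE 0.27), and 0 were called, as for all 13768 genes tested (0.0%). At an unadjusted p under 0.05 limma found 0 of the 8 genes, beside 1.96% of all genes higher and 3.84% lower.

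Non-tumour livers of DEN-treated mice were then compared with normal livers of untreated mice. None of the 8 genes was called, beside 0.386% of 13488 genes higher and 0.0148% lower. The differences in this joint fit over both genotypes ran from −0.33 for Des (SE 0.21) to 0.34 for Ngfr (SE 0.20), and none reached an unadjusted p under 0.05. No fit was run within a genotype, so that opposite changes can cancel. Mean Acta2 was 2.09 TPM in normal and 6.01 TPM in non-tumour livers of WT mice, and 6.73 and 1.24 TPM in those of GKO mice. The groups overlapped in each genotype. The highest Acta2 value outside the tumours came from a normal liver, GKO normal 2 at 15.5 TPM.

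Ordered by group mean, Acta2 was highest in WT tumours (26.8 ± 9.74 TPM) and GKO tumours (23.2 ± 8.09 TPM), whose samples overlapped. Lrat was highest in GKO non-tumours (2.84 ± 1.01 TPM) and lowest in WT tumours (0.446 ± 0.182 TPM), and each group overlapped the next in order. For Rgs5 the 5 groups other than WT tumours overlapped in order, from 8.53 to 5.64 TPM, and WT tumours stood below them at 1.89 TPM. For Cygb the same held, from 15.3 to 9.90 TPM and then 3.36 TPM. For Pdgfrb, GKO tumours stood above all other groups, which overlapped in order from 2.52 to 1.25 TPM. Des held no gap between neighbouring groups, from 5.23 TPM in GKO normal livers to 2.11 TPM in WT non-tumours.

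The other genes of the same cells were counted in tumours against non-tumours over both genotypes, where 12.2% of all genes rose and 7.87% fell. Of the 17 other stellate cell genes tested, 10 fell and 1 rose, with a median difference of −1.15 beside 0.08 for all genes. The largest falls were in Ecm1, an extracellular matrix protein (−2.04, SE 0.65), Dcn, the proteoglycan decorin (−1.81, SE 0.40), and Hand2, a transcription factor of the stellate lineage (−1.67, SE 0.34). The gene that rose was Nes, the filament nestin (1.10, SE 0.19, limma adjusted p = 0.00225). In WT non-tumour 2, Ecm1 measured 7.14 TPM and Hand2 1.25 TPM, within the range of the tumours, while the other non-tumours measured at least 84.4 and 5.59 TPM. Without that library 14 of the 17 fell and 1 rose, beside 9.73% and 17.1% of all genes. In WT mice alone limma called 0 of 16, with 8 lower and 1 higher at an unadjusted p under 0.05, where 10.6% of all genes were lower and 9.31% higher. Without that library 8 of 17 fell and 1 rose in WT mice, beside 3.13% and 2.87% of all genes.

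Of the 11 retinoid handling genes tested, 2 rose and 3 fell, beside 12.2% and 7.87% of all genes. The counts were the same without WT non-tumour 2, beside 17.1% and 9.73%. The rises were in Bco1, which cleaves β-carotene (2.98, SE 0.44), and Pnpla3, a lipase that acts on retinyl esters (1.74, SE 0.42). The falls were in Cyp26a1, which breaks down retinoic acid (−3.30, SE 0.35), Aldh1a1, a retinaldehyde dehydrogenase (−2.56, SE 0.55), and Retsat, a retinol saturase (−2.33, SE 0.52). Several of these genes are also active in hepatocytes.

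Of the 14 other pericyte and smooth muscle genes tested, 8 rose and 2 fell, beside 12.2% and 7.87% of all genes. The median difference of the 14 was 0.78. The largest rises were in Mcam, a mural and endothelial adhesion molecule (1.76, SE 0.26), Actg2, the enteric smooth muscle actin (1.57, SE 0.22), and Myl9, a myosin light chain (1.34, SE 0.21). Kcnj8, Smtn, Notch3, Heyl and Myh11 also rose. The genes that fell were Tpm2, a tropomyosin (−1.13, SE 0.29), and Mylk, the myosin light chain kinase (−0.95, SE 0.22). With median centring 5 rose and 2 fell, a setting in which fewer of all genes were called higher and more lower. Without WT non-tumour 2, 9 rose and 2 fell, beside 17.1% and 9.73% of all genes. Srf rose by 0.40 (SE 0.13, limma adjusted p = 0.0488), the 1 called of 3 contractile gene regulators tested.

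Actg2 measured 3.96, 3.67 and 1.82 TPM in WT tumours, and GKO tumours measured 1.39, 2.43 and 3.52 TPM. It reached at most 1.02 TPM in non-tumours. In GKO normal liver 2, the untreated sample with the highest Acta2, Actg2 measured 1.43 TPM, Myl9 17.1 TPM and Myh11, a smooth muscle myosin heavy chain, 3.20 TPM. Each was the highest value of the 12 samples outside the tumours.

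**Figure D3:**
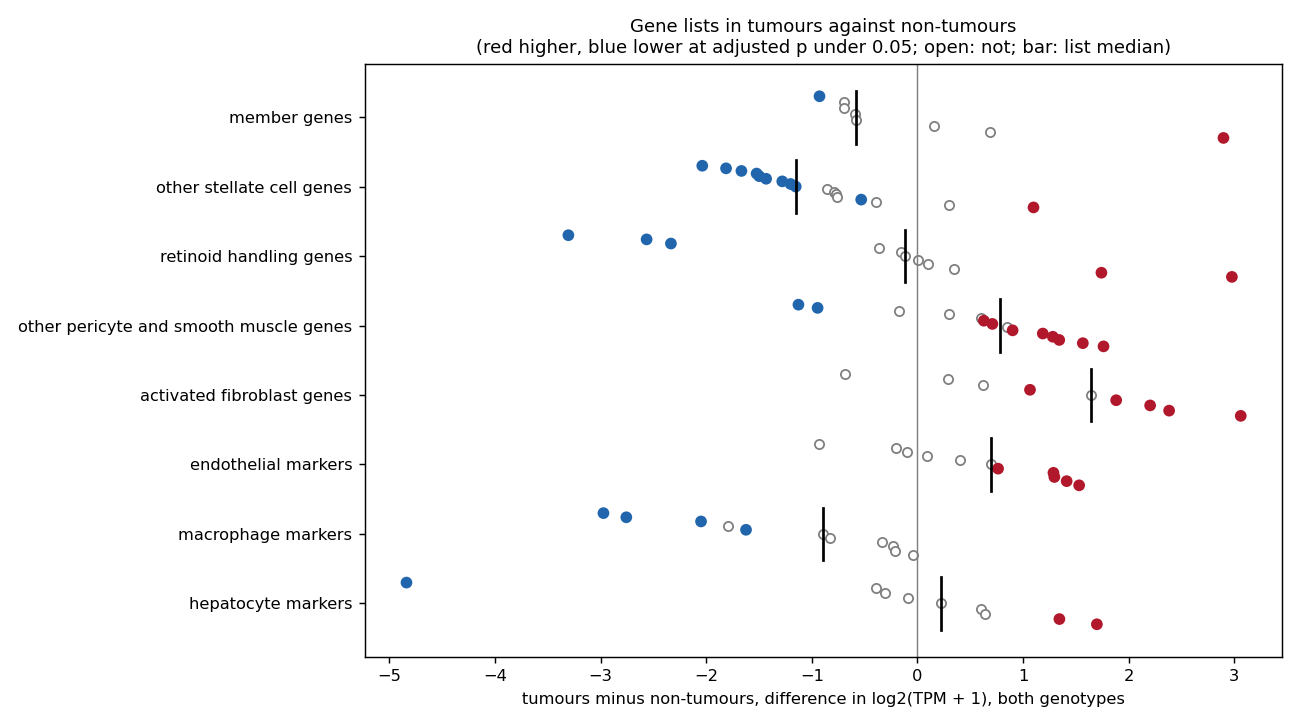
Each point is a gene, placed by its difference in log2(TPM + 1) between tumours and non-tumours over both genotypes, in rows by gene list, with the list median as a bar. Coloured points passed the adjusted threshold, and the other stellate cell genes lie mostly to the left, with a median of −1.15, and the pericyte and smooth muscle genes mostly to the right, with a median of 0.78.

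Of 9 activated fibroblast genes tested, 5 were higher and 0 lower in the joint fit, beside 12.2% and 7.87% of all genes. Without WT non-tumour 2, 6 of 9 were higher, beside 17.1% of all genes. Col1a1 and Col3a1, the fibrillar collagens, differed by 3.06 (SE 0.49) and 2.38 (SE 0.41), and Sparc, a matrix glycoprotein, by 2.20 (SE 0.35). In GKO mice 6 of 11 were higher, beside 7.75% of all genes. In WT mice limma called 0 of 9, beside 2.16% of all genes higher and 2.07% lower. At an unadjusted p under 0.05, 5 of the 9 were higher and 1 lower in WT mice, beside 9.31% and 10.6%.

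Ligands, receptors, processing enzymes and related genes of the marker genes' pathways were counted from the joint fit, where 12.2% of all genes rose and 7.87% fell. Of the 5 PDGF ligands and receptors tested, 2 rose and 0 fell. The ligand gene Pdgfb measured 4.54, 4.10 and 3.13 TPM in WT tumours, and GKO tumours measured 8.74, 4.35 and 7.61 TPM. All lay above the non-tumours, which reached 3.09 TPM (difference 1.39, SE 0.27, limma adjusted p = 0.00453). Pdgfd rose by 0.79 (SE 0.25). Of 8 tested genes around HGF activation and reception, protease inhibitors and the urokinase receptor included, 3 rose and 0 fell. The rises were in Hgfac, a protease that activates HGF (1.91, SE 0.25), Plaur, the urokinase receptor (1.15, SE 0.24), and Plau, urokinase itself (0.91, SE 0.24). Of 6 reelin and neurotrophin partners, Dab1, the reelin adaptor, rose by 0.84 (SE 0.27) and Vldlr, a reelin receptor, fell by 0.64 (SE 0.20). Without WT non-tumour 2, 2 of 5 PDGF genes and 4 of 8 HGF genes rose and 0 fell. In that fit 0 of 5 reelin and neurotrophin partners, Dab1 included, rose and 3 fell, beside 17.1% and 9.73% of all genes. Neither Mb nor Ngb, the globin relatives of Cygb, reached the level for testing.

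Other cell types moved as well, in the joint fit where 12.2% of all genes rose and 7.87% fell. Of 11 endothelial markers tested 5 rose, led by Cd34 (1.53, SE 0.34), Emcn (1.41, SE 0.26) and Cdh5 (1.30, SE 0.22). Of 11 macrophage markers 4 fell, led by Clec4f (−2.97, SE 0.79), Marco (−2.76, SE 0.69) and Vsig4 (−2.05, SE 0.56), markers of resident macrophages. Of 9 hepatocyte markers Alb (1.70, SE 0.19) and Apoa1 (1.34, SE 0.20) rose and Cyp2e1 (−4.84, SE 0.79) fell. Entpd2 (2.24, SE 0.49) and Eln (1.15, SE 0.24) rose among 7 portal fibroblast and mesothelial genes, and Tspan8 (3.73, SE 0.78) among 6 cholangiocyte markers. Without WT non-tumour 2, 5 of 12 endothelial markers rose and 6 of 11 macrophage markers fell, beside 17.1% and 9.73% of all genes. None of 6 T cell markers, 1 Schwann cell marker and 1 lymphatic endothelial marker tested was called. Hepatocyte markers summed to between 170899 and 209559 TPM in tumours and between 71081 and 96800 TPM in non-tumours, and because TPM has a fixed total, their part in the lower level of other genes was not tested.

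**Figure D4:**
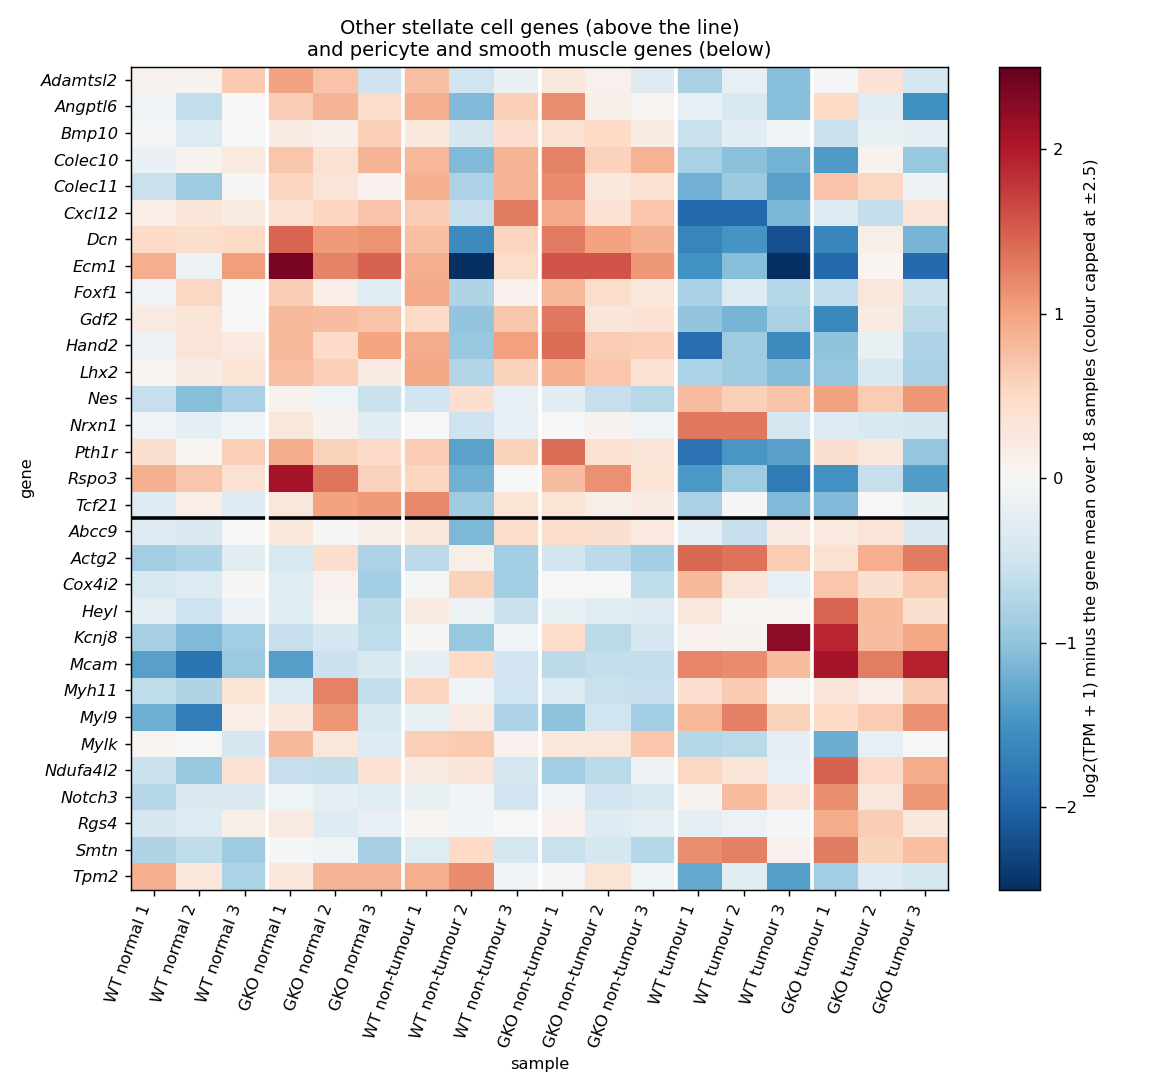
Colour gives log2(TPM + 1) minus the mean of the gene over the 18 samples, for the other stellate cell genes above the line and the other pericyte and smooth muscle genes below it. Ecm1 and Hand2 were low in WT tumours, in GKO tumours 1 and 3 and in WT non-tumour 2, at 7.14 and 1.25 TPM in the last, and Mcam was high in the tumours.

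For each marker with a mean of at least 1 TPM, the genes with the most similar pattern were found by the Pearson correlation of log2(TPM + 1) over the 18 samples, among 11896 genes. The samples share groups and tissue, so that the values are descriptive. Acta2 was closest to Bcam (r = 0.941), Actg2 (r = 0.940) and Tuba1a (r = 0.940). Lrat was closest to Vipr1 (r = 0.942), Colec10 (r = 0.929) and Hand2 (r = 0.929). Cygb was closest to Pth1r (r = 0.941), Colec11 (r = 0.892) and Scarf2 (r = 0.888). Pdgfrb was closest to Trp53i11 (r = 0.920), Cd248 (r = 0.915) and Lamb1 (r = 0.912). Rgs5 was closest to Tmtc2 (r = 0.845), Cyp7a1 (r = 0.833) and Colec11 (r = 0.832). Reln was closest to Glrx (r = 0.837), Gm15952 (r = 0.815) and Mapk15 (r = 0.808). Des was closest to Rpl36 (r = 0.828), Mycbp2 (r = 0.820) and Zdhhc20 (r = 0.819). Colec10, Hand2, Pth1r, Colec11 and Actg2 belong to the stellate and contractile lists.

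Among the 7 markers themselves, the correlation over the 18 samples was highest between Cygb and Rgs5 (r = 0.813) and between Cygb and Lrat (r = 0.747). Acta2 ran with Pdgfrb (r = 0.698) and against Lrat (r = −0.701). Des was related weakly to each of the others, with r between 0.0232 and 0.363.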

How the data were processed

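Total RNA of 18 samples was sequenced by the authors. Per the labels and the study's methods, reads were aligned to mm10 with STAR 2.7.3a and counted with featureCounts 2.0.0, named in the submitters' processing notes. The authors deposited TPM values per gene. The annotation and TPM calculation are not given in the sources used here.

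TPM values were analysed as log2(TPM + 1). Each comparison was fitted with limma 3.58.1 (R 4.3.3, eBayes with trend) on its own samples, for genes averaging 0.5 TPM or more. Joint comparisons took genotype as a covariate. P-values were Benjamini-Hochberg adjusted over all genes tested and called under 0.05. Exact permutation tests were two-sided, on log2(TPM + 1). With 3 against 3 samples the exact permutation test cannot go below p = 0.1.

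Gene lengths and overlaps came from GENCODE M21, which matched 54809 of 54838 genes. Multiplying TPM by exonic length, with a scaling factor for each library, gave whole reads, within 0.02, for 98.0% to 98.7% of values up to 30 reads. As an alternative, voom of limma on these reads, scaled by the median ratio to the gene means, called 1581 genes higher and 1510 lower in tumours over both genotypes. The fit was tested on simulated data.

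The genes named were all 10 markers, up to 3 called genes in each direction of each other list with the largest differences, the deleted genes, and the 3 genes closest to each marker by correlation. Further genes named for their values were chosen after these were seen. The markers and lists were chosen with earlier results of these data known, and so support nothing on their own. Same-numbered GKO and WT tumours deviated together (r between 0.101 and 0.197 over genes, every pair above 0.1). Other comparisons did not meet this rule, although WT tumour 3 and WT non-tumour 3 reached 0.249. Alternatives were another pseudocount, filter, scaling, variance model, fit and unit, a replicate block and leaving out samples. Genes of the lists that are not reported here were left out of their counts. Promoter windows of Tagln, Cygb and Pdgfrb, and of part of the list genes, were not used here.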

Additional observations from a re-analysis of the deposited data

How the results depend on the processing

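Counts of called markers moved as follows. The share of all genes called also moved with the setting. Where no such share stands beside a count, the count describes the setting and shows nothing particular to the markers. In WT tumours against WT non-tumours, 1 gene was called, 0 with WT tumours 1 and 2 averaged, 3 with all 18 samples in one fit (Cygb, Ngfr and Rgs5 lower, beside 5.84% of all genes lower and 5.93% higher) and 2 with the replicate block (Acta2 higher, Rgs5 lower). Leaving out 1 sample gave 0 to 3, with 0 without WT non-tumour 1 or 3 or WT tumour 2. In GKO mice 2 were called, and 1 (Acta2) without a filter. Leaving out 1 sample gave 1 to 4, with 4 without GKO tumour 2. In both genotypes 2 were called, and 1 (Acta2) without a filter or with WT tumours 1 and 2 averaged. It was 5 with median centring and with quantile normalization, where Ngfr, Reln and Rgs5 joined Lrat as lower, and 6 with all 18 samples in one fit, where Pdgfrb also passed as higher, beside 17.3% of all genes higher and 9.89% lower. Under quantile normalization these shares were 12.2% and 11.3%. Centring moved the median of all genes from 0.08 to −0.05, and the calls over all genes from 12.2% higher and 7.87% lower to 9.77% and 12.2%. Leaving out 1 sample gave 1 to 3. Lrat was lost without WT non-tumour 1 or 3, GKO non-tumour 1, 2 or 3, WT tumour 1 or 2, or GKO tumour 1 or 3. In GKO against WT tumours, 0 were called and 1 (Rgs5 higher) with all 18 samples in one fit. Acta2 kept its direction and its call in both genotypes and in GKO mice under every alternative run. For the pairing by replicate number, the labels tie same-numbered samples by number alone, and the block changed no count other than the one given. With a mean of at least 5 TPM, Rgs5 in WT mice, Pdgfrb in GKO mice and Lrat in both were not tested at all, so that 0, 1 and 1 genes were called and the stricter filter says nothing about those calls. The cause of the other changes was not tested.

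Directions turned for differences that were not called. With WT tumours 1 and 2 averaged, Pdgfrb in WT tumours against WT non-tumours was −0.058 and Des in GKO against WT tumours 0.13. Rgs5 in GKO tumours against GKO non-tumours was −0.16 with median centring, −0.19 with quantile normalization and −0.20 with voom. In non-tumours against normal livers these 3 settings gave −0.084, −0.074 and −0.094 for Rgs5 and −0.20, −0.17 and −0.22 for Pdgfrb, and the pseudocount of 0.1 gave 0.17 for Acta2. Leaving out 1 sample gave ranges across 0. In WT tumours against WT non-tumours Pdgfrb ran from −0.11 to 0.29. In GKO tumours against GKO non-tumours Rgs5 ran from −0.20 to 0.32 and Cygb from −0.34 to 0.16. In GKO against WT tumours Des ran from −0.45 to 0.17, Reln from −0.49 to 0.24 and Acta2 from −0.52 to 0.12. In GKO against WT non-tumours Rgs5 ran from −0.036 to 0.28, Lrat from −0.014 to 0.94, Reln from −0.0088 to 0.21, Ngfr from −0.10 to 0.42 and Cygb from −0.12 to 0.73. In non-tumours against normal livers Pdgfrb ran from −0.066 to 0.20, Reln from −0.076 to 0.067, Acta2 from −0.50 to 0.41 and Cygb from −0.30 to 0.075. For the interaction Lrat ran from −0.52 to 0.43 and Reln from −0.59 to 0.14. The alternative of averaging WT tumours 1 and 2 in the interaction and the list counts without WT non-tumour 2 were chosen after seeing the data. Tagln and Hgf held too few reads for a limma test.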
